A study of Mus musculus with 10 samples.

Results

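YTHDC1 is a nuclear protein that reads N6-methyladenosine (m6A), the commonest internal mark of messenger RNA. The peaks described here are 4586 short stretches that came down with YTHDC1 outside protein-coding and lncRNA genes, of 30992 RIP (RNA immunoprecipitation) peaks in all. They were selected on width and position: each is at most 1000 bp wide and its midpoint lies in no protein-coding or lncRNA gene span of the RefSeq table for GRCm38.p6, the build also called mm10. Below they are called narrow intergenic peaks, though the midpoint of 671 of them lies in a RefSeq model of another type, mostly a pseudogene. The widest kept were 997, 998 and 998 bp and the narrowest left out were 1003, 1005 and 1007 bp. All results below are for male mouse embryonic stem (ES) cells derived from 129 mice and grown without feeder cells in serum with LIF. The RIP list rests on 1 pull-down of Halo-tagged YTHDC1 from Halo-Ythdc1 knock-in cells, with 1 input. The m6A lists rest on cells labelled Mettl3 wild type and Mettl3 knockout, METTL3 being the catalytic subunit of the m6A writer, with 2 precipitates and 2 inputs for each genotype. The sources used here do not say from how many clones the lines came. The pull-down used Halo beads and a denaturing wash, with RNA left undigested until proteinase released it. The lists hold 12368 wild-type and 6764 knockout m6A peaks and give positions only, with no height, strand or value per replicate, so no difference below can be set against a spread between replicates. The depth behind the peaks is unknown, and all intervals cover counting error only. Of the 2 knockout precipitates, 1 is described with the file of the other genotype, and the knockout samples carry a cell type label of WT, so which precipitates stand behind which m6A list is unsettled.

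As background, YTHDC1 binds methylated RNA in the nucleus, where it has been tied to splicing, to RNA export and, in ES cells, to the silencing of retrotransposons such as LINE1 elements and endogenous retroviruses. Much nuclear RNA lies outside messenger RNA genes: small nuclear RNAs of the spliceosome, microRNA precursors, transcripts that run past gene ends or start upstream of promoters, and copies of genes and repeats. An endogenous retrovirus is bounded by a pair of matching long terminal repeats. Reads from sequences present in several copies may be placed at more than 1 position, and the sources used here do not state how such reads were handled. No repeat annotation was used here.

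Among the narrow intergenic peaks, 6 shared bases with 9 miRNA models, and 9 mature miRNAs lay whole inside a peak. The mature sequences are shown because they name the precursors that the peaks cover. They come from RefSeq (GRCm38.p6), are written 5′ to 3′, and carry the seed (bases 2 to 8) in capitals.
mmu-let-7i-5p: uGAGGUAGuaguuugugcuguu
mmu-let-7i-3p: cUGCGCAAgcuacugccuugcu
mmu-miR-18a-3p: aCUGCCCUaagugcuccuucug
mmu-miR-19a-3p: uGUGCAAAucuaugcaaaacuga
mmu-miR-219a-5p: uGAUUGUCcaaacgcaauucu
mmu-miR-219a-1-3p: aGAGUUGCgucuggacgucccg
mmu-miR-219c-5p: gGACGUCCagacgcaacucucg
mmu-miR-219c-3p: cGAGAAUUgcguuuggacaauc
mmu-miR-682: cUGCAGUCacagugaagucug
The 9 sequences held 9 different seeds. The let-7i model, of the let-7 family that rises as ES cells differentiate, lay whole in a 200 bp peak at chr10:122985585-122985784, 6375 bp from Mon2. A 271 bp peak at chr14:115043900-115044170 covered the Mir19a model whole, 47 bp of Mir18 and 14 bp of Mir20a, all of the cluster hosted by Mir17hg, with its midpoint 355 bp upstream of the annotated span of that gene. Mir219a-1 and Mir219c are annotated on opposite strands of 1 locus, and a 222 bp peak at chr17:34024926-34025147, 357 bp upstream of Ring1, covered both. Mir682 lay in a 307 bp peak at chr13:75644880-75645186. Mir376a and Mir134, in the imprinted cluster on chromosome 12, were touched over 6 and 8 bp by peaks of 200 bp each. None of these 6 peaks overlapped an m6A peak of either genotype, and few of all narrow intergenic peaks did (1.9% and 1.61% for the wild-type and knockout lists).

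Of all 4586 narrow intergenic peaks, 112 (2.44%, exact Clopper-Pearson 95% interval 2.02 to 2.93%) shared a base with a promoter window, defined as 250 bases before to 50 after a gene's start. Of these, 8 covered a window of 300 bp whole. The share of all RIP peaks or of bases outside genes on such windows was not measured, so 2.44% cannot be read as a preference. The bases upstream of the gene start that a peak covers are printed for 4 genes whose peak also overlapped an m6A list. For Nedd8 this was the knockout list alone. Sequences are from RefSeq (GRCm38.p6), on the strand of the gene and 5′ to 3′, and capitals mark GGACT, a frequent form of the m6A site, or AGTCC, its form on the other strand.
Tbc1d22a, chr15:86214209-86214410, plus strand: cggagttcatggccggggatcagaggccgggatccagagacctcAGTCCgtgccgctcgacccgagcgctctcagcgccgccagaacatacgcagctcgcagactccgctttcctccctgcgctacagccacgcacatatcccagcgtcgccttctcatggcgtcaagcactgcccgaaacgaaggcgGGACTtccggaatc
Il17d, chr14:57524579-57524828, plus strand: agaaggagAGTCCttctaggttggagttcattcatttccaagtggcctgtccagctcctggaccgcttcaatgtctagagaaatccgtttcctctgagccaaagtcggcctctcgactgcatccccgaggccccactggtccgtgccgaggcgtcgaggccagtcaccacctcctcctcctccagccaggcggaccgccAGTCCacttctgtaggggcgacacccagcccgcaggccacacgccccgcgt
Ep300, chr15:81585964-81586213, plus strand: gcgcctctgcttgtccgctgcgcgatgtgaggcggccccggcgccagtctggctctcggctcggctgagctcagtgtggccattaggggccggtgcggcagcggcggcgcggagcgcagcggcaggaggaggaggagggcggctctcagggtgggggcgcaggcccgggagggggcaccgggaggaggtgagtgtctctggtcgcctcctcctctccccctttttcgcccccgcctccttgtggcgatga
Nedd8, chr14:55671881-55672097, minus strand: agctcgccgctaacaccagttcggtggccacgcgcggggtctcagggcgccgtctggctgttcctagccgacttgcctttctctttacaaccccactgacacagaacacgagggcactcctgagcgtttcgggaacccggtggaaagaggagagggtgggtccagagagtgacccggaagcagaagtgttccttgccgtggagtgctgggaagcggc
The stretch of Tbc1d22a, which encodes a Rab GTPase-activating protein, held 1 GGACT and 1 AGTCC. That of Il17d, a cytokine gene, held 2 AGTCC and no GGACT. The stretches of Ep300, a histone acetyltransferase gene, and of Nedd8, a ubiquitin-like modifier gene, held neither. Over 32815 promoter windows of 300 bp, 26.1% held GGACT on the strand of the gene and 45.5% held it on either strand, so the letters alone set these stretches apart from no others. The 4 stretches were 62.2 to 73.2% G and C, and whole promoter windows of 300 bp had a median of 52.7%. Other promoter peaks that overlapped an m6A list ran lower and higher over the bases shared with the window. Examples were 46.5% at Gtsf1l and 76.2% at Rheb, so the 4 show no base content common to such peaks. The peaks at these starts were 512 bp (Tbc1d22a), 475 bp (Il17d), 413 bp (Ep300) and 306 bp (Nedd8) wide. Their midpoints lay 256, 158, 131 and 65 bp upstream of the gene. The peaks at Il17d, Ep300 and Nedd8 also ran past the gene start into the gene, and that at Tbc1d22a ended before it. The wild-type m6A peak at Ep300, chr15:81586001-81586550, reached into the gene as well. Overlap with m6A at Il17d, Ep300 and Nedd8 therefore cannot be given to RNA upstream of the gene alone. Of the 112 peaks on promoter windows, 7 overlapped wild-type m6A and 7 knockout m6A (6.25% each, 2.55 to 12.5%). Over all narrow intergenic peaks the shares were 1.9% (wild type) and 1.61% (knockout). For those upstream within 1 kb of a gene they were 9 of 327 (2.75%) and 8 of 327 (2.45%). The promoter shares rest on 7 peaks each and were not tested.

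Narrow intergenic peaks were mostly near 200 bp in width. They ranged from 12 to 998 bp with a median of 200 bp (quartiles 185 and 238 bp) and covered 1.05 Mb in all. Exactly 200 bp was the width of 1075 of them (23.4%) and of 6546 of the 21498 narrow peaks in genes (30.4%). The next most common width was 192 bp, shared by 101 peaks (2.2%) against 144 in genes (0.670%). The classes also differed at 101 to 199 bp, with 29.1% of narrow intergenic peaks and 18.5% of narrow peaks in genes. As a ratio the difference was largest among the widest, with 209 narrow intergenic peaks (4.56%) and 214 narrow peaks in genes (0.995%) at 501 to 1000 bp. Since width was used to select them, these are descriptions with no test. Narrow peaks made up 56.7% of the 8083 RIP peaks outside genes and 93.8% of the 22909 in genes.

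**Figure D1:**
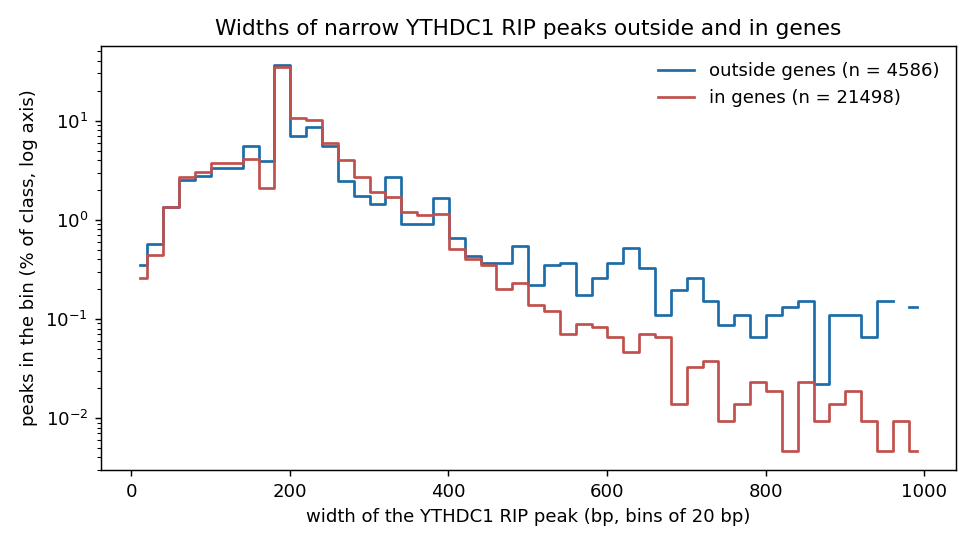
Share of narrow YTHDC1 RIP peaks (y axis, % of each class, log axis) by width in bins of 20 bp (x axis), for 4586 peaks outside genes and 21498 in genes. Both lines peak at 200 bp, and the line for peaks outside genes stands above the other in nearly all bins beyond 500 bp (not at 961 to 980 bp, with 0 peaks against 2), where 4.56% against 0.995% of the peaks lie.

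Widths above 250 bp recurred to the base pair. Among narrow intergenic peaks, 34 were exactly 338 bp wide, 24 exactly 336 bp and 22 exactly 395 bp, against 18, 20 and 28 of the far more numerous narrow peaks in genes. The 338 bp peaks lay on 12 chromosomes at a median of 42486.5 bp from the nearest gene, and 33 of the 34 had another narrow intergenic peak within 10 kb. In 33 of the 34, a partner within that distance had the same width within 2 bp. Of all 102 pairs of narrow intergenic peaks of at least 250 bp whose starts lay within 10 kb of each other, 41 (40.2%, 30.6 to 50.4%) had widths equal within 2 bp, and 36 had identical widths. Among 626 such pairs of narrow peaks in genes, 35 (5.59%, 3.92 to 7.69%) were equal within 2 bp and 16 identical. This grouping was noticed in the data, so no test is given. The intervals treat pairs as independent, but pairs can share a peak. On chromosome 16, for example, the peaks of 338 bp starting at 87372445, 87374160 and 87375875 each count as paired with both others.

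The spacing of these pairs repeated as well. In the group within 2 bp of 336 or 338 bp, 51 of 75 peaks stood in 27 pairs on 16 chromosomes, with starts 1715 to 6830 bp apart. Of these pairs, 10 were spaced by 6700 to 6800 bp and spanned 7073 to 7122 bp from end to end. At chr1:60724865-60725202 and chr1:60731609-60731946, for example, both peaks were 338 bp and their starts 6744 bp apart. The pair on chromosome 8 at 4886139 and 4892883 had the same width and the same spacing of 6744 bp, and the pair on chromosome 17 at 94296362 and 94303107 was spaced by 6745 bp. In the group within 2 bp of 395 bp, 16 of 40 peaks stood in 8 pairs, and all 8 pairs were spaced by 1490 to 1493 bp. One of them, at chr10:97323019-97323413 and chr10:97324509-97324903, lay 65542 and 64052 bp from the nearest gene. In 37 of the 41 pairs no other RIP peak lay between the partners. Peaks in pairs were farther from genes than other narrow intergenic peaks of 250 bp or more, at a median of 65542 against 12758.5 bp, and 63 of the 79 (79.7%, 69.2 to 88.0%) against 494 of 908 (54.4%) lay over 10 kb away. None of the 79 overlapped m6A in either list (upper bound of the exact interval 4.56%), against 47 of 908 (5.18%) for the wild-type list and 44 (4.85%) for the knockout list among the others. Only 2 of the 79 lay on a pseudogene model, against 203 of the 908 others (22.4%), and the part of this in the m6A contrast was not tested. Sequence copy number was not analysed here, and its part in these repeats of width and spacing was not tested.

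**Figure D2:**
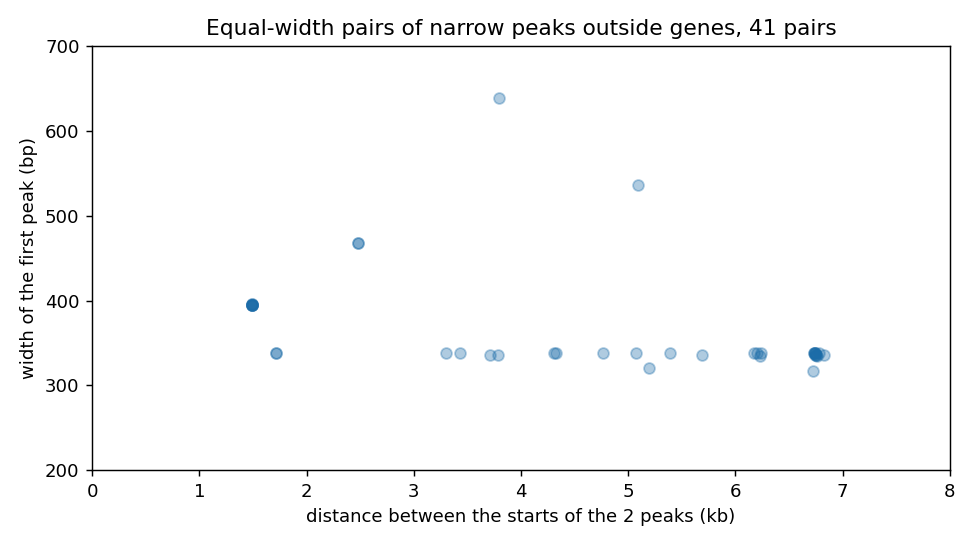
Each of the 41 equal-width pairs of narrow intergenic peaks, by the distance between the starts of the partners (x axis, kb) and the width of the first partner (y axis, bp). Darker points are pairs that coincide. The points gather at 395 bp with a spacing near 1.49 kb and along a line at 336 to 338 bp that ends in a knot at 6.7 to 6.8 kb.

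The peaks lay close to genes. The median distance from midpoint to nearest gene end was 8748.5 bp (quartiles 2109 and 31904.8 bp), and 2416 peaks (52.7%, 51.2 to 54.1%) were within 10 kb, where 22.8% of all bases outside genes lie. Within 1 kb the count was 731 (15.9%, against 3.25% of bases), and beyond 100 kb it was 543 (11.8%, against 31.2% of bases). Wider RIP peaks outside genes lay farther off: the median distance was 43443 bp for the 744 peaks of 1 to 4 kb and 64750 bp for the 2753 of 4 kb or more, and 17.2% and 11.0% of these were within 10 kb. Because a narrow peak's midpoint can come nearer to a gene without entering it than a wide peak's can, the bins under 1 kb are not comparable between width classes. Only 55 narrow intergenic peaks (1.20%) shared any base with a gene span.

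**Figure D3:**
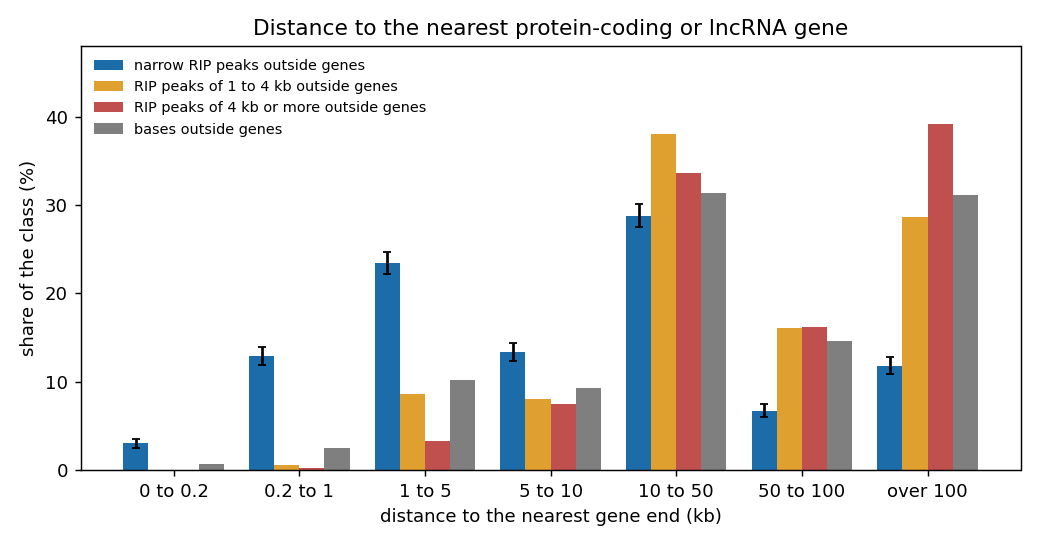
Share of peaks or bases (y axis, %) in 7 bins of distance to the nearest protein-coding or lncRNA gene (x axis, kb), for narrow intergenic peaks (error bars, exact 95% intervals), RIP peaks of 1 to 4 kb and of 4 kb or more outside genes, and all bases outside genes. Narrow intergenic peaks exceed the share of bases in each bin up to 10 kb and fall below it in each bin beyond.

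Within 10 kb the numbers on the sides of genes were close. The strand of the nearest gene was known for 1915 of the 2416 peaks, and 950 of these lay downstream and 965 upstream (49.6% downstream, 47.3 to 51.9%). With the nearest protein-coding gene taken alone the upstream side held slightly more, at 781 of 1656 downstream (47.2%, 44.7 to 49.6%). Within 1 kb the upstream side held more, 327 of 573 peaks, so that 42.9% (38.8 to 47.1%) were downstream. Next to lncRNA genes 213 of 374 peaks within 10 kb were downstream (57.0%, 51.8 to 62.0%), and next to protein-coding genes 737 of 1541 (47.8%, 45.3 to 50.4%). The RIP peaks have no strand, so whether a peak continues the transcript of its neighbour was not tested. The farthest peaks of all lay alone in gene-poor stretches, led by a 200 bp peak at chr3:43491135-43491334, 1687928 bp from the nearest gene, and a 192 bp peak at chr2:99998502-99998693, 1288207 bp away. Of the 10 farthest, 4 were on the X chromosome. Of those 4, 2 lay on copies of Rps12, a ribosomal protein gene (Rps12-ps17 and Rps12-ps13).

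Clusters were mostly pairs. With a gap of at most 10 kb, 1407 peaks (30.7%, 29.3 to 32.0%) fell into 590 clusters of 2 or more, with a median span of 2893 bp, and 3179 stood alone. Of the clusters, 450 were pairs, 123 held 3 or 4 peaks and 17 held 5 or more. Among the 21498 narrow peaks in genes, 62.7% were clustered by the same rule. A fixed gap joins more peaks where they lie denser, and density was not adjusted for, so these shares are not comparable. The largest cluster, of 15 peaks, lay at chr8:20122286-20157168, and the next of 13 and 10 peaks at chr8:20267189-20297232 and chr8:20552476-20591045. From the first to the last large cluster of chromosome 8 (0.469 Mb) there were 49 narrow intergenic peaks, all of them clustered, of which 31 lay on pseudogene models, 8 overlapped wild-type m6A and 3 knockout m6A. The clusters of 15, 13 and 10 peaks each had a peak of 557 bp as their widest. Outside chromosome 8, a cluster of 7 peaks spanned 32549 bp on chromosome 11 with its right edge 11894 bp from Spred2, an inhibitor of RAS signalling, and carried 1 wild-type m6A overlap.

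Among the genes with most narrow intergenic peaks within 10 kb was Dppa5a, which encodes a small RNA-binding protein of pluripotent cells. Its 7 peaks lay at chr9:78366067-78371910 around a gene span that itself held no narrow RIP peak. The 3 on the left side were 126, 93 and 46 bp wide at 922, 384 and 299 bp from the span, and the 4 on the right were 56, 227, 186 and 210 bp wide at 1174, 1318, 3080 and 3607 bp. None overlapped m6A. The lncRNA gene Gm36005, between Ranbp17 and Gabrp, also had 7, at 293 to 6126 bp. Zc3h11a, a zinc finger gene for an mRNA export factor, had 5, of which 4 lay upstream at 3573 to 7302 bp and were 671, 551, 196 and 299 bp wide. Tmem107, a gene for a protein of the ciliary membrane, had 5, of which the 208 bp peak at 207 bp downstream covered Snord118, the U8 small nucleolar RNA. Pds5a, a cohesin regulator, had 5 on both sides within 1964 bp. Ssr2, a subunit of the translocon complex, had 5 within 4210 bp, 1 of which shared 150 bp with knockout m6A. All 4 peaks of Dnah8, an axonemal dynein gene, lay downstream at 3665 to 8056 bp. Of the 4 peaks of Mcl1, an inhibitor of apoptosis, 3 were downstream.

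In all, 2047 of 34418 genes had a narrow intergenic peak nearest to them within 10 kb (5.95%), 1760 of them a single one and 55 of them 3 or more. The share was 7.44% of protein-coding and 3.37% of lncRNA genes. Genes with such a neighbour more often also held a narrow RIP peak in their span, at 1128 of 2047 (55.1%, 52.9 to 57.3%) against 28.9% of all genes. A wild-type m6A peak lay in the span of 39.6% of them against 20.3% of all genes. Both comparisons are descriptions, since the expression and length of the genes were not analysed here.

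Genes of 9 lists, chosen with earlier results of these data known, were counted against the 5.95% of all genes. Among pluripotency genes 7 of 30 had a narrow intergenic peak within 10 kb (23.3%, 9.93 to 42.3%). Beside Dppa5a they included Zfp42, also called Rex1, a marker of undifferentiated ES cells, with 3 peaks at 2192 to 5943 bp downstream, and Lefty1 and Klf5 with 1 each. Ribosomal protein genes reached 21 of 78 (26.9%, 17.5 to 38.2%), with 3 peaks at Rps3, and retrotransposon silencing genes 9 of 32 (28.1%, 13.7 to 46.7%), with 2 downstream peaks each at Uhrf1, a reader of hemimethylated DNA, and Resf1. Splicing factor genes reached 9 of 35, among them Luc7l2, Sf3b1, Srsf3 and U2af1. Of the genes for m6A factors 5 of 23 had such a peak, and Hnrnpc, an RNA-binding protein that reads structure changed by m6A, had 3 at 5780 to 7990 bp downstream. Nuclear and imprinted lncRNA genes reached 8 of 25, with 3 peaks upstream of Mirg and 1 on each side of Xist. Replication histone genes reached 12 of 65, and 2 of their peaks were both 577 bp wide, each 1056 bp downstream of H2bc23 or H4bc24. Immediate early and signalling genes reached 4 of 27 (Dusp4, Ier2, Klf6 and Id3) and genes of 2-cell-like ES cells 3 of 20 (15.0%, 3.21 to 37.9%). All 9 lists lay above the share over all genes, but the intervals of the immediate early (4.19 to 33.7%) and 2-cell-like lists contain it. The share was 7.44% over protein-coding genes, just under the lower bound for m6A factor genes (7.46%). A narrow RIP peak lay in the span of 34 of 35 splicing factor genes but 1 of 20 of the 2-cell-like list, against 28.9% of all genes. Expression of the listed genes was not analysed, and its part in these shares was not tested. None of the peaks named in this paragraph overlapped m6A.

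Small noncoding RNA genes lay under 47 narrow intergenic peaks (1.02%, 0.754 to 1.36%), and none of the 47 overlapped m6A, a count too small to differ from the 1.9% (wild type) and 1.61% (knockout) of all narrow intergenic peaks. The largest group was 26 peaks on 26 small nuclear RNA (snRNA) models, 4.55% (2.99 to 6.59%) of the 572 such models outside genes. The peaks were 200 to 304 bp wide, with a median of 238 bp, and 22 of the 26 models lay whole inside them. They included Rnu1b1 and Rnu1b2, the U1 RNAs that recognise 5′ splice sites (230 and 203 bp peaks), Rnu2-10, a U2 RNA (250 bp), and Rnu11 and Rnu12 of the minor spliceosome (273 and 248 bp). Rn7sk, the RNA that holds the elongation factor P-TEFb inactive, had a 244 bp peak within its 332 bp model. Between Eapp and Snx6 on chromosome 12, a stretch of 50439 bp held 7 snRNA models of 164 bp, and all 7 lay whole inside a peak. Terc, the RNA of telomerase, had a 263 bp peak within its 397 bp model. Rprl3, an RNase P RNA model, was covered whole by a 325 bp peak. The snoRNA genes Snord13 and Snord118 were covered whole by peaks of 235 and 208 bp, and 8 peaks touched tRNA models. Reads of near-identical snRNA copies cannot be assigned to 1 copy.

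**Figure D4:**
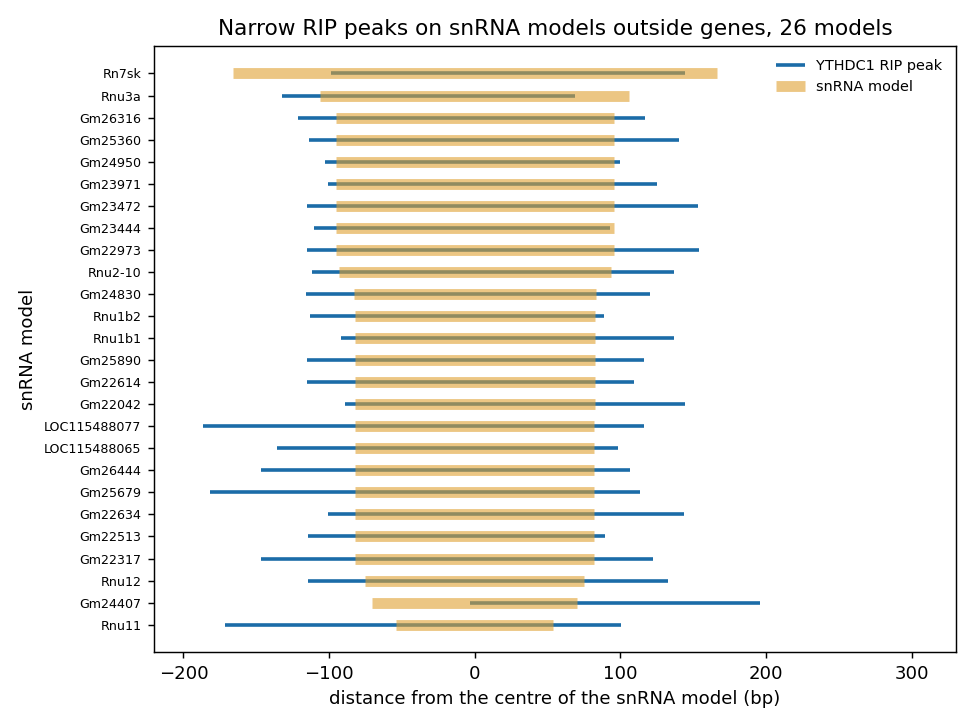
The 26 snRNA models outside genes that a narrow YTHDC1 RIP peak touches, each aligned on its centre (x axis, bp from the centre, in genome orientation), with the model as a thick bar and the peak as a thin line. For 22 of the 26 the peak spans the whole model.

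In the X inactivation centre, 4 peaks of 234, 213, 200 and 97 bp lay on Tsix, the antisense partner of Xist. The 97 bp peak (chrX:103459893-103459989) was also the one 432 bp downstream of Xist, and without strand its reads cannot be given to either transcript. Gnasas1, an imprinted antisense RNA, held 1 peak of 200 bp.

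Pseudogenes, the copies of genes that have lost their function, were the most frequent of the other RefSeq models under these peaks. They also made up 10330 of the 15185 models that are neither protein-coding nor lncRNA. The share of bases outside genes that they cover was not measured, so the share of peaks cannot be read as a preference. Narrow intergenic peaks on pseudogene models numbered 628 (13.7%, 12.7 to 14.7%) and touched 503 of 10330 models. They were 226 bp wide at the median and lay at a median of 21719.5 bp from the nearest gene, against 200 bp and 7304 bp for the rest. Among models named as copies of a gene in the table, 52 of the 100 touched were copies of ribosomal protein genes, led by Rpsa (7 models) and Rps12 (6). Such copies were also 316 of all 722 models of this kind (43.8%, 40.1 to 47.5%). Of the chromatin protein gene Hmgb1, 4 copies were touched. The parent gene itself held a narrow RIP peak for 79 of these 100 models, and for 481 of all 722 such models (66.6%). Reads of a processed pseudogene and of its parent can be nearly identical, so peaks on these models cannot be assigned to the pseudogene with certainty.

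Few narrow intergenic peaks lay near the long RIP peaks. Within 10 kb of a RIP peak of at least 4 kb there were 187 (4.08%, 3.52 to 4.69%), close to the 3.65% of bases outside genes and outside those peaks that lie as near. The excess was at the very edge: 58 peaks (1.26%, 0.962 to 1.63%) lay within 200 bp against 0.0762% of bases, and 94 (2.05%, 1.66 to 2.50%) within 1 kb against 0.379%. Farther out it turned, with 11.3% of peaks but 15.9% of bases within 50 kb. Of narrow peaks in genes, 0.186% lay within 1 kb. RIP peaks of 1 to 4 kb outside genes lay there more often than narrow intergenic peaks did, with 6.32% within 200 bp, 6.85% (5.15 to 8.91%) within 1 kb and 11.0% within 10 kb, so nearness to long peaks is not particular to the narrow ones. The 94 adjoining peaks sat beside 92 long peaks, all outside genes and 5447.5 bp wide at the median. The gap was 1 to 981 bp with a median of 174.5 bp, and 24 gaps were at most 100 bp. None of the 94 overlapped m6A in either list, but the upper bound of 3.85% lies above the 1.91% (wild type) and 1.59% (knockout) of narrow intergenic peaks over 10 kb from a long peak. Whether the caller had split 1 enriched stretch into a long and a short peak was not tested. Of the 3829 long peaks 164 (4.28%) had such a neighbour within 10 kb, and none had more than 3. The 4 with 3 included chr3:96364602-96369645, between Platr30 and Gm26689, and a 4347 bp peak at chr17:39853678-39858024 in the lncRNA gene AY036118.

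Overlap with m6A was a measure that the selection did not use. Of the 4586 narrow intergenic peaks, 87 (1.9%, 1.52 to 2.33%) shared at least 1 bp with a wild-type m6A peak and 74 (1.61%, 1.27 to 2.02%) with a knockout peak, against 5.64% and 4.83% of all RIP peaks. Narrow peaks in genes overlapped more often, at 1625 of 21498 (7.56%, 7.21 to 7.92%) and 1411 (6.56%, 6.24 to 6.90%). The odds ratio was 0.236 (95% interval 0.190 to 0.294, adjusted p = 1.42e-56) for the wild-type list and 0.233 (0.184 to 0.296, adjusted p = 4.54e-50) for the knockout list, by Fisher's exact test, two-sided, with Benjamini-Hochberg adjustment over 4 comparisons. These p-values compare peaks of the lists, which are not independent replicates. Only 580 of the 12368 wild-type and 290 of the 6764 knockout m6A peaks lay outside genes. The odds ratios do not adjust for this, so they do not show that narrow intergenic peaks avoid m6A. Its part in them was not tested. The wild-type share was lower than that of narrow peaks in genes on 20 of 21 chromosomes, the other being the Y chromosome, which had no narrow peak in a gene. Against RIP peaks of 1 to 4 kb outside genes (8 of 744, 1.08%, wild type, and 2 of 744, 0.269%, knockout), the odds ratio was 1.78 (0.859 to 3.69, adjusted p = 0.135) and 6.08 (1.49 to 24.8, adjusted p = 0.00286, Fisher's exact test). The second rests on 2 overlapping peaks.

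The same shares differed within the narrow intergenic peaks by what lay beneath. On pseudogene models 51 of 628 peaks overlapped wild-type m6A (8.12%, 6.11 to 10.5%) and 52 knockout m6A (8.28%, 6.25 to 10.7%). Of the 3958 others, 36 (0.910%, 0.638 to 1.26%) and 22 (0.556%, 0.349 to 0.840%) did. Peaks on pseudogenes thus made up 58.6% of the wild-type and 70.3% of the knockout overlaps but 12.1% of the peaks that overlapped neither list. Among narrow peaks in genes the pseudogene split was small, at 7.72% on pseudogene models and 7.56% elsewhere for the wild-type list and 9.93% and 6.52% for the knockout list. The split was noticed in the data, so it has no test. The share also rose with width, from 0 of 345 peaks of at most 100 bp and 1 of 1333 of 101 to 199 bp to 58 of 1624 (3.57%) of 201 to 500 bp for wild-type m6A. In every one of these width classes it lay below that of narrow peaks in genes, which was 1.49%, 0.932% and 10.6%. The share of narrow intergenic peaks on pseudogene models also varied over these classes, at 5.22%, 3.08% and 24.6%. At 501 to 1000 bp, 3.83% overlapped wild-type m6A and 9.09% lay on pseudogene models. A wider peak also meets the rule of 1 shared bp more easily by construction. Neither this nor the part of pseudogenes in the trend with width was tested. Peaks alone overlapped wild-type m6A in 1.32% of cases, those in clusters of 2 to 4 in 2.87% (2.03 to 3.94%) and those in clusters of 5 or more in 6.72% (2.95 to 12.8%, 8 of 119). The last value rests on the large clusters of chromosome 8 described above, which held 7 of the 8 overlaps: without their 45 peaks it was 1 of 74 (1.35%, 0.0342 to 7.30%). Of the 45, 27 lay on pseudogene models.

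**Figure D5:**
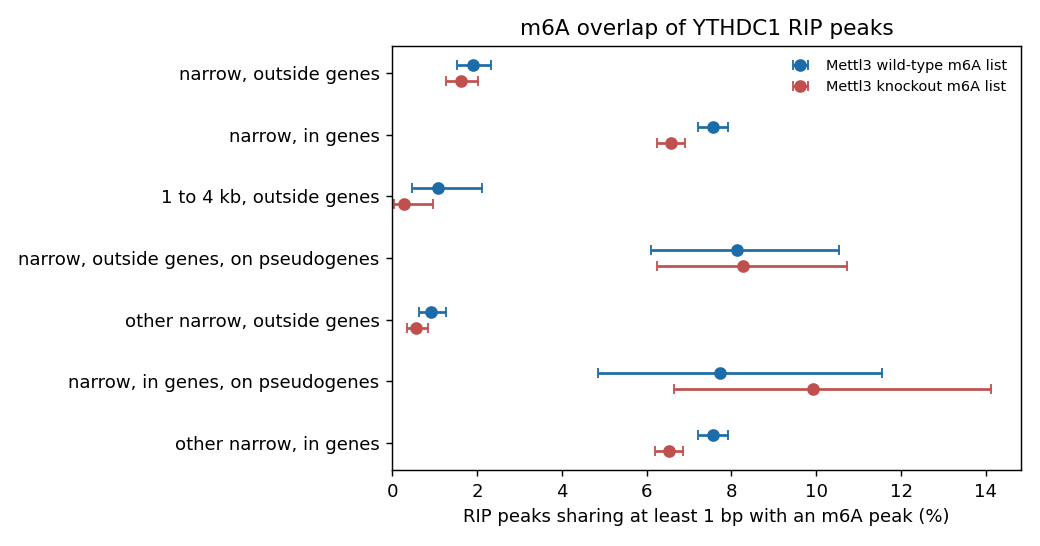
Share of RIP peaks that share at least 1 bp with an m6A peak (x axis, %; points with exact 95% intervals) for the wild-type and the knockout list, by class of RIP peak (y axis). Narrow intergenic peaks on pseudogenes (8.12% and 8.28%) lie in the range of narrow peaks in genes, and the other narrow intergenic peaks (0.910% and 0.556%) lie below all classes of narrow peaks in genes.

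Most narrow intergenic peaks that overlapped an m6A list did so with 1 list only. Of the 144 that overlapped either list, 70 overlapped the wild-type list alone, 57 the knockout list alone and 17 both. Narrow peaks in genes were split in a like way. Off pseudogene models 1604 of them overlapped the wild-type list, 1384 the knockout list and 257 both, and on pseudogene models 21, 27 and 4. Overlap with mostly 1 list is thus not particular to narrow intergenic peaks. Seen from the m6A lists, 83 of the 580 wild-type m6A peaks outside genes (14.3%, 11.6 to 17.4%) and 69 of the 290 knockout peaks (23.8%, 19 to 29.1%) touched a narrow intergenic peak. The largest shared stretch was at Tbc1d22a, where the 512 bp peak at chr15:86213899-86214410, whose sequence is shown above, shared 500 bp with wild-type and 300 bp with knockout m6A. A 370 bp peak at chr11:86357956-86358325, 545 bp upstream of Med13, a subunit of the Mediator kinase module, lay wholly in wild-type m6A and shared 275 bp with knockout m6A. The peak at Il17d shared 467 bp with wild-type m6A and the peak at Ep300 shared 284 bp, and neither overlapped the knockout list. The peak at Nedd8 went the other way, with all 306 bp inside a knockout m6A peak of 450 bp and none in the wild-type list. Peaks of the top ranks far from genes lay on pseudogene models, as at chr14:48079449-48079829, 41138 bp from Peli2, with 281 bp in wild-type and 279 bp in knockout m6A. The m6A lists cannot be set against each other as amounts, since they differ in length and the samples behind them are unsettled.

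Per Mb of sequence outside genes the density of narrow intergenic peaks ran from 0.193 on the Y chromosome to 5.72 on chromosome 11, with a median of 3.38 over 21 chromosomes. Chromosome 8, with the large clusters, had 4.91 and chromosome 19 had 4.82, while the X chromosome had 2.06.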

How the data were processed

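The authors deposited 3 peak lists for the 10 samples, with other values than positions (height, score, strand) not given. The deposited values are starts and ends in bp, from 0, and are printed from 1. The submitters' processing notes name mm10 as build and, in no order or role, MACS2 2.1.2, SAMtools 1.9, HISAT2 2.2.0, Trim Galore 0.6.4, STAR 2.7 and bcl2fastq. The tool behind each list, its threshold and any pooling of replicates are not stated there.

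Peaks were set against 34418 RefSeq gene spans (21779 protein-coding, 12639 lncRNA) and 15185 other models. A further 196 genes placed below 3000000 bp (except on Y), numbered along scaffolds, were left out. Strand was known for 27025 genes. Bases outside genes (1451.5 Mb) include assembly gaps. Peaks overlapped if they shared 1 bp, and clusters had gaps of at most 10 kb. Intervals are exact Clopper-Pearson (95%) for shares and Wald for odds ratios, and Fisher's exact tests were two-sided (Python 3.11.15, SciPy 1.17.1). The scripts were tested on simulated data.

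The peaks, lists and tests were chosen with earlier results of these data known. Named are the 10 largest clusters, the 10 farthest peaks, the 10 genes with most peaks, the 10 and 5 largest overlaps with wild-type and knockout m6A, up to 5 peaks for each other gene type (all miRNAs), 5 long RIP peaks and up to 4 genes of each list. Not all of these are printed, and provisional names were mostly left out. Other named snRNA models and equal-width pairs were chosen after their values were seen.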

Additional observations from a re-analysis of the deposited data

How the results depend on the processing

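No paired analysis was possible because each list is 1 set of positions with no values per replicate. Of 42 alternatives, 27 counted as unchanged. Shares stayed inside the main interval, tests on the same side of the threshold, and peak counts within a looser ratio limit. The peak counts included 3915 with the midpoint in no RefSeq model of any type and 5506 with protein-coding spans alone, against 4586. The share within 10 kb of a gene was 45.2% with protein-coding genes alone, and the downstream share then was 47.2% (44.7 to 49.6%), an interval below that of an even split. The clustered share was 24.5% at 5 kb, 38.1% at 20 kb and 11.1% for 3 or more peaks. The share near long RIP peaks was 3.14% at 5 kb, 11.3% at 50 kb and 2.75% for RIP peaks of 5 kb or more. The wild-type and knockout m6A shares were 1.31% and 0.872% with 50% of the peak covered, 5.78% and 5.12% with a gap of 1 kb, and 0.910% and 0.556% without peaks on pseudogenes, the last chosen after seeing the data. Against narrow peaks in genes the odds ratio stayed below 1 in all 10 alternatives, at 0.112 (wild type) and 0.0801 (knockout) without pseudogenes. Against RIP peaks of 1 to 4 kb the wild-type odds ratio was 9.85 (1.36 to 71.2) with 50% covered, in place of 1.78. That value says nothing about the classes, since a wider RIP peak needs more covered bases by construction and wild-type m6A peaks had a median width of 400 bp. The knockout value could not be computed there, since no peak of 1 to 4 kb was covered that far. Peak height, depth and replicates could not be varied.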
